A study of Mus musculus with 6 samples.

Results

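Ly6c2-positive CD8 thymocytes were defined here as thymic cells with RNA of a CD8 chain, no RNA of Dntt (the enzyme that adds bases to rearranging antigen receptor genes), low Ccl5 RNA and at least 1 unique molecular identifier (UMI, 1 counted RNA molecule) of Ly6c2. They were selected on these raw counts: at least 500 genes and 1000 UMIs per barcode, at most 20% mitochondrial UMIs, fewer than 5 UMIs of Top2a, Mki67, Birc5, Ccna2, Cdk1 and Ube2c together, Cd8a plus Cd8b1 of at least 1, Dntt of 0, Ly6c2 of at least 1 and Ccl5 below 15. The rule found 257 cells among the 3702 thymic cells that passed the cell filter, 66 of 1067 in the library labelled Pdcd1fl/fl and 191 of 2635 in the library labelled Pdcd1 cKO. All 6 libraries of the series, from thymus, spleen and tumor, held 16651 barcodes. The comparison cells were the 104 and 557 thymocytes that met every other part of the rule and had no Ly6c2 UMI.

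The study asked how loss of PD-1, an inhibitory receptor encoded by Pdcd1, affects CD8 T cells after positive selection. Both thymic libraries, labelled baseline, came from adult C57BL/6 mice that carried floxed Pdcd1 alleles, 1 mouse per library. Pdcd1 cKO mice also carried a Cre driven by the E8I enhancer of Cd8a, which acts in CD8 T cells, and Pdcd1fl/fl mice served as controls. CD8 T cells were taken with a CD8a isolation kit and made into droplet libraries. With 1 library per genotype, a difference between libraries cannot be told apart from a difference between mice or preparations, and no test was made. Intervals are exact 95% intervals for counting error only.

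Ly6c2 encodes a surface protein of the Ly6C antigen, which is carried by monocytes and by many mature and memory CD8 T cells. Memory-like CD8 T cells of the thymus are known for the interleukin 15 receptor chain Il2rb, the transcription factor Eomes and genes of killing, and may arise in the thymus or return to it from the blood. Recently selected thymocytes carry Ccr9 and acquire Ccr7 and Klf2 as they mature and prepare to leave.

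Pdcd1 RNA was higher under the label Pdcd1 cKO. Over all cells that passed the filter, 12 Pdcd1 UMIs were found under the label Pdcd1fl/fl, or 1.88 counts per 1000000 UMIs (CPM; 0.970 to 3.28). The library labelled Pdcd1 cKO had 131, or 6.84 CPM (5.72 to 8.12). Of these, 1 and 59 UMIs lay in the 28 and 169 cells with at least 15 Ccl5 UMIs (9.58 and 64.3 CPM). In the Ly6c2-positive cells there were 0 and 2 Pdcd1 UMIs, and in the Ly6c2-negative cells 0 and 10. The interval for those 0 UMIs in members labelled Pdcd1fl/fl reaches 14.2 CPM, so Pdcd1 was not measurable in the cells described here. The deleted exons were not looked at, and the libraries are called by their labels throughout.

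The libraries shared 0 barcodes. The Ly6c2-positive cells had medians of 3491 UMIs and 1534.5 genes under the label Pdcd1fl/fl, against 5669 UMIs and 1721 genes under the other label. Their Ly6c2-negative counterparts had medians of 3426.5 and 4854 UMIs, so the members were the deeper cells in the library labelled Pdcd1 cKO. Ribosomal protein genes took 28.5% and 41.4% of the members' UMIs, against 28.1% and 38.4% in the Ly6c2-negative cells. The second library thus differed in composition as well as depth, whichever cells were taken. No doublet caller was run.

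Of the CD8-positive Dntt-negative cells with low Ccl5, 66 of 170 were Ly6c2-positive in the library labelled Pdcd1fl/fl, or 38.8% (31.5 to 46.6), and 191 of 748 in the library labelled Pdcd1 cKO, or 25.5% (22.4 to 28.8). After each cell was thinned at random to 1000 UMIs, the shares with a Ly6c2 UMI were 22.9% (16.9 to 30.0) and 10.8% (8.69 to 13.3). CD8-negative Dntt-positive thymocytes, which are immature, served for comparison. Of these, 14.9% and 11.8% had a Ly6c2 UMI, at median depths of 3516 and 5423 UMIs, and 5.71% and 5.13% after thinning. They held 45 and 257 Ly6c2 UMIs in 26 and 53 cells, more than 1 per positive cell, so they do not gauge free RNA alone, and its part was not tested. The share was thus above that of the immature cells in both libraries and lower in the library labelled Pdcd1 cKO, with and without thinning.

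Ly6c2 (ENSMUSG00000022584) lies on chromosome 15, 74980003 to 74988467, minus strand, in GRCm39. It had 236 UMIs in the members of the library labelled Pdcd1fl/fl, or 909 CPM, and 743 UMIs or 675 CPM in the other. Just inside the threshold, with 1 Ly6c2 UMI, sat 97 of the 191 members (50.8%) labelled Pdcd1 cKO and 20 of the 66 (30.3%) labelled Pdcd1fl/fl. Cells with at least 4 Ly6c2 UMIs numbered 52 and 24. Many members therefore rested on a single molecule, and more so in the library labelled Pdcd1 cKO.

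Counts of Ly6c2 could be uncertain toward its neighbour Ly6c1, on chromosome 15, 74915847 to 74920686, minus strand. Only coding sequences were compared, and where the reads lay in the transcripts was not looked at. The GENCODE coding sequences of both have 393 bases and are 97.7% identical, with 9 mismatches and a longest identical run of 188 bases. The stretch from coding base 6 to 65 with most mismatches is shown because reads lying wholly in identical stretches cannot be told apart, with the 6 mismatched bases in capitals.
Ly6c1: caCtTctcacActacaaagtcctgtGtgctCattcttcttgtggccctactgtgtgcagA
Ly6c2: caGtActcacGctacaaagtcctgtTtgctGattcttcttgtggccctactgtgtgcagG
Ly6c1 had 4 UMIs in the members and 3 in the Ly6c2-negative cells of the library labelled Pdcd1fl/fl, and 28 and 8 in the other. Its level in the members, 15.4 and 25.4 CPM, was small beside that of Ly6c2.

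The other marker genes of the name memory-like were chosen with earlier results of these data known. Their levels therefore describe the members and cannot check the name. Gzmm, a granule protease, had 11 UMIs in 7 of 66 members and 0 in the Ly6c2-negative cells of the library labelled Pdcd1fl/fl, at least 5.73-fold higher by the 3 counts that a count of 0 allows, with a log2 interval from 1.97 upward. Members labelled Pdcd1 cKO had 13 UMIs in 8 of 191 members and 4 in the Ly6c2-negative cells, or 11.8 and 1.40 CPM, a log2 ratio of 3.07 (1.38 to 5.15). Eomes, a transcription factor of memory CD8 T cells, had 9 and 0 UMIs in the library labelled Pdcd1fl/fl, at least 4.69-fold higher by that floor (interval from 1.62). In the other library it stood at 22.7 and 17.5 CPM, a log2 ratio of 0.37 (-0.38 to 1.09). Both genes were thus rare: 12 of 66 and 22 of 191 members had a UMI of either.

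Il2rb, the receptor chain for interleukins 2 and 15, stood at 196 CPM in the members and 101 CPM in the Ly6c2-negative cells of the library labelled Pdcd1fl/fl, a log2 ratio of 0.96 (0.34 to 1.59). Its levels under the label Pdcd1 cKO were 87.2 and 62.4 CPM, a ratio of 0.48 (0.11 to 0.85). Dapl1, a gene of quiescent naive and memory CD8 T cells, stood at 92.4 and 71.5 CPM (0.37, -0.47 to 1.20) and at 174 and 84.8 CPM (1.03, 0.75 to 1.31). In pooled counts the 4 markers outside the rule were higher in the members in both libraries, but the intervals of Eomes and Dapl1 each took in 0 in 1 library. Under the label Pdcd1 cKO, 14 of 25 Eomes UMIs and 10 of 13 Gzmm UMIs lay in the 26 members with 5 to 14 Ccl5 UMIs, so those ratios rest on few cells. A UMI of Gzmm was found in 10.6% and 4.19% of members (6.06% and 1.05% thinned), against 2.29% and 2.23% of the immature cells (0 and 0.670% thinned). A UMI of Il2rb was found in 43.9% and 31.9% of members (16.7% and 8.38% thinned), against 6.29% and 9.15% of the immature cells (0.571% and 3.35% thinned). In the Ly6c2-negative cells the Il2rb shares were 26.9% and 25.1% (6.73% and 4.31% thinned), with intervals that overlapped those of the members. The Gzmm shares there were 0% and 0.718%. Cells with at least 15 Ccl5 UMIs had higher shares than the members, 53.6% and 69.2% for Il2rb and 42.9% and 21.9% for Gzmm. Most members also had Ccr7, the receptor that guides mature thymocytes to the medulla: 47 of 66 and 155 of 191 cells (71.2% and 81.2%). So did 78 of 104 and 467 of 557 Ly6c2-negative cells (75.0% and 83.8%), so having Ccr7 did not set the members apart. The members are named by their rule, as Ly6c2-positive cells.

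Between members and Ly6c2-negative cells, 2081 genes had at least 50 UMIs in the library labelled Pdcd1fl/fl, of which 32 (1.54%) were at least 2-fold higher in the members and 40 (1.92%) at least 2-fold lower. Under the label Pdcd1 cKO, 19 of 6636 genes (0.286%) were at least 2-fold higher and 156 (2.35%) lower. Of 2077 genes with enough UMIs in each library, 0 were 2-fold higher in both and 0 were 2-fold lower in both (0% each), leaving out the genes of the rule. A ratio above 0 in both libraries was found for 379 genes (18.2%) and below 0 in both for 845 (40.7%). The members thus differed from their Ly6c2-negative neighbours mostly by small amounts, and the genes nearest to a shared 2-fold difference are given next.

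**Figure D1:**
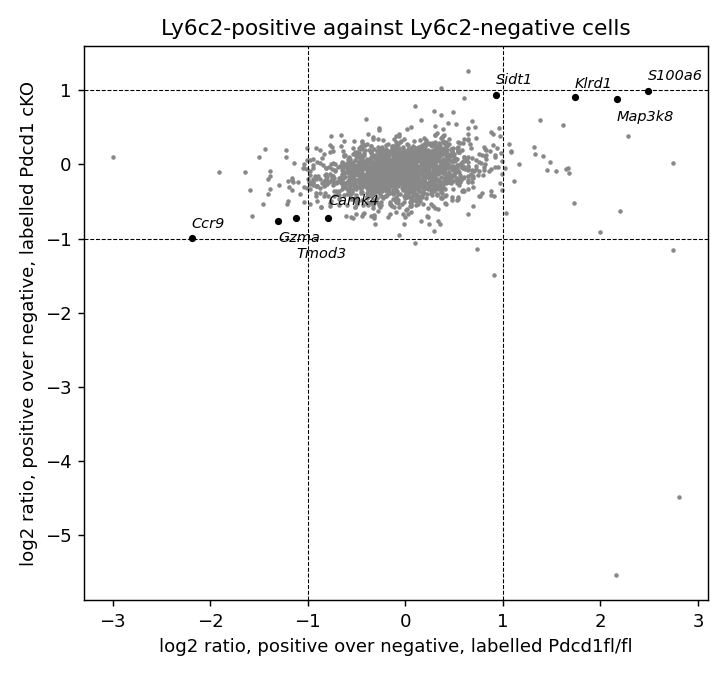
Log2 ratio of CPM in Ly6c2-positive over Ly6c2-negative cells for each of 2077 genes, with the library labelled Pdcd1fl/fl on the horizontal axis and that labelled Pdcd1 cKO on the vertical axis. Dashed lines mark 2-fold, and no gene lies past it on the same side in both; S100a6 and Ccr9 lie nearest.

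S100a6 (ENSMUSG00000001025; chromosome 3, 90520140 to 90535843, plus strand), a calcium-binding protein of activated and memory T cells, had 104 UMIs in the members and 29 in the Ly6c2-negative cells of the library labelled Pdcd1fl/fl, or 401 and 71.5 CPM. The library labelled Pdcd1 cKO had 189 and 247 UMIs of it, or 172 and 86.6 CPM. The log2 ratios were 2.49 (1.88 to 3.13) and 0.99 (0.71 to 1.27), so the gene missed the 2-fold line narrowly in 1 library. There, 138 of the 189 UMIs lay in the 26 members with 5 to 14 Ccl5 UMIs (1057 CPM). The other 165 members stood at 55.8 (37.4 to 80.2) and 48.8 CPM (30.6 to 73.9) with 0 and 1 to 4 Ccl5 UMIs. All Ly6c2-negative cells stood at 86.6 CPM (76.1 to 98.1), an interval that overlapped the first. These Ly6c2-negative cells included 11 with 5 to 14 Ccl5 UMIs (591 CPM) and 3 with stromal UMIs, so the groups were not alike. Ccr9 (ENSMUSG00000029530; chromosome 9, 123507181 to 123613395, plus strand), the chemokine receptor of thymocytes and gut-homing T cells, went the other way. It had 8 and 57 UMIs in the library labelled Pdcd1fl/fl, or 30.8 and 140.5 CPM, and 96 and 493 UMIs in the other, or 87.2 and 173 CPM. Its ratios were -2.19 (-3.47 to -1.11) and -0.99 (-1.32 to -0.67).

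Klrd1, which encodes the CD94 chain of NK-type receptors, stood at 181 and 54.2 CPM (log2 ratio 1.74, 0.98 to 2.54) and at 108 and 57.5 CPM (0.91, 0.56 to 1.26). Map3k8, a kinase of inflammatory signalling, had ratios of 2.17 (1.32 to 3.09) and 0.87 (0.36 to 1.38), and Sidt1 of 0.93 (0.39 to 1.47) and 0.94 (0.62 to 1.25). Pim1, a kinase induced by cytokines, had ratios of 0.60 (0.08 to 1.12) and 0.90 (0.63 to 1.16), and Ctla2a of 1.38 (0.70 to 2.08) and 0.59 (0.30 to 0.88). Each of these genes was higher in the members in both libraries with an interval above 0, but against Ccr7-positive Ly6c2-negative cells the interval of Pim1 took in 0 under the label Pdcd1fl/fl (0.43, -0.11 to 0.97). The rest of the 15 highest were Clybl, Ier2, Ahnak, AW112010, Cct6a, Mctp2, Klhl6, Il2rb and the interleukin 7 receptor gene Il7r. Of these, Clybl, Ier2, Mctp2, Klhl6 and Il7r had an interval that took in 0 in at least 1 library. Among all genes tested in both libraries, 42 were higher and 49 lower with intervals off 0 in each. Some of these rest on cells with stromal UMIs: without them, under the label Pdcd1fl/fl, Ahnak went from 1.61 to 0.66 (-0.21 to 1.53) and Junb from 0.45 to -0.17 (-0.57 to 0.22). AW112010 went from 0.52 to 0.34 (-0.02 to 0.71) against Ccr7-positive cells there.

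On the lower side, Gzma, a granule protease that was more abundant in the immature cells (479 and 200 CPM), stood at 53.9 CPM in the members and 133 CPM in the Ly6c2-negative cells of the library labelled Pdcd1fl/fl. In the other library it stood at 30.0 and 50.8 CPM. Against Ccr7-positive Ly6c2-negative cells its ratios, -0.39 (-1.47 to 0.64) and -0.52 (-1.13 to 0.06), had intervals that took in 0. Camk4, a calcium-dependent kinase, had ratios of -0.79 (-1.44 to -0.17) and -0.72 (-1.03 to -0.43), and Ikzf2, which encodes the transcription factor Helios, of -0.98 (-1.71 to -0.30) and -0.54 (-0.88 to -0.21). The remaining 11 of the 15 lowest were Tmod3, Nrf1, Pbrm1, Pde3b, Fnbp4, Mrpl18, Kmt2a, Actn2, Rbm6, Sipa1l1 and 1500011B03Rik. Their ratios nearer to 0 lay between -0.73 and -0.53. Of these 11, only Tmod3, Nrf1, Pde3b and Sipa1l1 had intervals below 0 in both libraries.

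Of 20 NK-type receptor genes, Klrd1 alone had enough UMIs in both libraries, but their summed level was 528 CPM in the members and 175 CPM in the Ly6c2-negative cells of the library labelled Pdcd1fl/fl, and 378 and 192 CPM in the other. Klra9, an inhibitory Ly49 receptor with close relatives in the genome and hence uncertain, had 16 and 4 UMIs and 46 and 19 UMIs. Klrk1, the activating receptor NKG2D, had 13 and 0 UMIs, at least 6.77-fold higher by that floor (interval from 2.25), and 37 and 39 UMIs, a log2 ratio of 1.30 (0.61 to 1.99). Others went the other way, with 1 and 14 UMIs for Cd160 under the label Pdcd1fl/fl and, in the other library, 1 and 7 for Klrc1 and 4 and 19 for Kit. The sums of the list were thus higher in the members than in the Ly6c2-negative cells. They were higher still, at 670 and 658 CPM, in cells with at least 15 Ccl5 UMIs, and the list was not tested.

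Over all genes tested in both libraries, 18.2% lay above 0 in both and 40.7% below, and the counts of each list stand beside these shares. No list was tested as a whole. Of 19 genes of cytotoxic granules and effector cytokines, 4 were tested, 3 of them above 0 in both libraries and Gzma below, with medians of 0.30 and 0.13. Nkg7, a granule membrane protein, stood at 882 and 648 CPM and at 481 and 445 CPM, ratios of 0.44 (0.18 to 0.71) and 0.11 (-0.04 to 0.26), and the first became 0.22 (-0.05 to 0.48) against Ccr7-positive Ly6c2-negative cells. Of 27 genes of late thymic maturation, 22 were tested, with 17 above 0 in both libraries and 3 below, and medians of 0.25 and 0.10. Among them B2m, the light chain of MHC class I, had ratios of 0.17 (0.04 to 0.29) and 0.09 (0.05 to 0.14), but the first went away against Ccr7-positive cells (-0.12 to 0.13). Of 24 genes of immature thymocytes and selection, 10 were tested, 5 of them below 0 in both libraries and 1 above, with medians of -0.02 and -0.42. Satb1, a chromatin organizer of thymocytes, stood at 593 and 717 CPM and at 487 and 624 CPM.

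Of 12 tested T cell identity genes, 9 were below 0 in both libraries and 0 above, with medians of -0.15 and -0.18 beside -0.07 and -0.12 for all tested genes. Cd3g stood at 913 and 1087 CPM and at 903 and 1105 CPM. Of 25 transcription factors of memory and effector cells, 11 were tested, 3 above and 4 below 0 in both libraries, with medians of 0.12 and -0.21. Klf2, which drives exit from the thymus, had ratios of 0.41 (0.10 to 0.72) and 0.12 (-0.03 to 0.26), and Lef1, a factor of naive T cells, of -0.01 (-0.34 to 0.31) and -0.28 (-0.44 to -0.12). The Klf2 interval under the label Pdcd1fl/fl took in 0 without cells that had stromal UMIs (0.24, -0.09 to 0.57) and against Ccr7-positive Ly6c2-negative cells (0.28, -0.04 to 0.61). Cytokine and chemokine receptors had 8 of 26 genes tested, 3 above and 4 below 0 in both, with medians of 0.09 and -0.08. Adhesion and homing genes had 11 of 18 tested, 3 above and 6 below, with medians of -0.01 and -0.07.

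Survival genes had 4 of 11 tested, 2 above 0 in both libraries, with medians of 0.26 and 0.11. Interferon-stimulated genes had 5 of 30 matched genes tested, 0 above and 1 below in both, with medians of -0.39 and 0.02. Both tested inhibitory receptors, Ctla4 and Cd96, were below 0 in both libraries, with medians of -0.16 and -0.13. The Ly6 family outside Ly6c2 had 2 genes tested, Ly6e above and Ly6d below 0 in both, but Ly6d had ratios of 0.16 (-0.42 to 0.73) and -0.14 (-0.43 to 0.14) against Ccr7-positive Ly6c2-negative cells. Of 83 tested ribosomal protein genes, 44 were above 0 and 8 below in both, with medians of 0.02 and 0.10. All of these medians lie well inside 2-fold and beside medians of -0.07 and -0.12 over all genes.

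Most genes that define other cells were low in the members, apart from Ighm, genes that T cells share and the stromal genes given below. The B cell list summed to 112 and 105 CPM, most of it Ighm (84.7 and 90.9 CPM), with Ms4a1, Pax5, Jchain and Sdc1 at 0 UMIs in both libraries. The monocyte and granulocyte list summed to 27.0 and 12.7 CPM, led by Fcer1g with 2 and 11 UMIs, with Csf1r, Itgam, S100a8 and S100a9 at 0. The plasmacytoid dendritic cell list summed to 458 and 331 CPM, led by Bst2, which T cells also express, with Siglech at 0. The conventional dendritic cell list summed to 30.8 and 38.2 CPM, led by Cd74, with Clec9a at 0.

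The NK cell list summed to 46.2 CPM in the members and 7.39 CPM in the Ly6c2-negative cells, and to 22.7 and 4.21 CPM in the other library, with Ncr1 at 0 and Klrb1c and Fcer1g as its most abundant genes. Matched genes of gamma-delta T cells, 5 of 9, summed to 50.1 and 74.5 CPM, led by Trdc and Maf, and innate-like T cell genes to 189 and 135 CPM, led by Slamf6 and Icos. The CD4 and regulatory T cell list summed to 27.0 and 30.9 CPM, led by Il2ra, with Tnfrsf4 and Cd40lg at 0, and red cell genes to 0 and 9.09 CPM, led by Hbb-bs. The part of these cells in the results was not tested.

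Stromal RNA came mostly from a single cell. In the library labelled Pdcd1fl/fl, 1 member had 444 UMIs of Dcn, C3, Mgp, Igfbp5, Col1a1 and Aebp1 together among 14571 UMIs, with 1 Cd8a or Cd8b1 UMI, 1 Ly6c2 UMI, 4 UMIs of Cd3d, Cd3e and Cd3g and 400 UMIs of Fos and Egr1. The stromal list summed to 870.5 CPM in the members and 261 CPM in the Ly6c2-negative cells of that library, against 103 and 118 CPM in the other, and to 106 and 112 CPM without the cells that had at least 5 such UMIs. Stress and dissociation genes summed to 3782 and 1841 CPM, against 1659 and 1679 CPM, and to 1473 and 1552 CPM without those cells. The higher stress sum of the members in the library labelled Pdcd1fl/fl thus went away with those cells. Without these cells S100a6 passed 2-fold in both libraries, with log2 ratios of 2.11 and 1.34, although its UMIs in the members labelled Pdcd1fl/fl went from 104 to 71.

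Levels of several genes differed with the amount of Ly6c2. Ccr9 stood at 140.5 CPM in cells without Ly6c2 and at 58.4, 25.8 and 10.4 CPM in cells with 1, 2 to 3 and at least 4 Ly6c2 UMIs under the label Pdcd1fl/fl, and at 173, 141, 77.0 and 12.0 CPM in the other. Il2rb went from 101 to 93.4, 155 and 321 CPM, and from 62.4 to 61.6, 97.3 and 119.6 CPM. Klrd1 went from 54.2 to 117, 90.3 and 311 CPM, and from 57.5 to 79.0, 122 and 143 CPM. The order by Ly6c2 was complete for Ccr9, on 5, 2 and 1 UMIs with overlapping intervals in members labelled Pdcd1fl/fl. It was broken for Il2rb in both libraries and for Klrd1 in 1.

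S100a6 stood at 71.5, 420.3, 219 and 529 CPM, where the value for 1 Ly6c2 UMI comes from 36 UMIs in 4 cells of a bin that holds the stromal cell, and at 86.6, 92.4, 130 and 326 CPM. Dapl1 stood at 71.5, 70.0, 142 and 72.5 CPM, with no order, in the library labelled Pdcd1fl/fl, and rose in level from 84.8 to 98.2, 142 and 314 CPM across the bins of the other. Ccr7 stood at 592, 595, 529 and 435 CPM and at 880, 890, 637 and 595 CPM. Cells with 1 Ly6c2 UMI under the label Pdcd1 cKO were close to cells with none in Ccr7, Il2rb, S100a6 and Dapl1. In these genes the members there stood apart mainly through those with more Ly6c2. Klrd1 (79.0 against 57.5 CPM) and Ccr9 (141 against 173 CPM) lay further apart between those cells, with overlapping intervals. Under the label Pdcd1fl/fl they stood at 117 against 54.2 CPM and at 58.4 against 140.5 CPM, also with overlapping intervals.

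**Figure D2:**
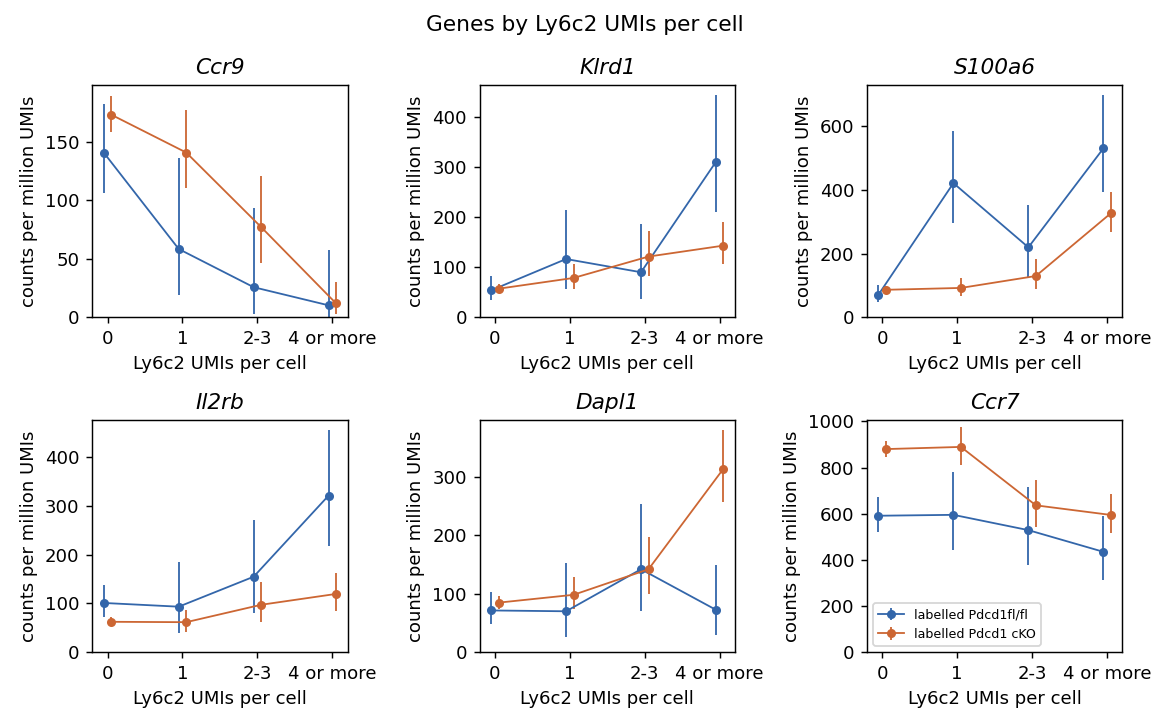
CPM of 6 genes (vertical axes) in thymocytes with 0, 1, 2 to 3 and at least 4 Ly6c2 UMIs per cell (horizontal axes), with exact 95% Poisson intervals for counting error. Ccr9 goes from 140.5 to 10.4 CPM and from 173 to 12.0 CPM, while Klrd1 and Il2rb are highest in cells with most Ly6c2 in both libraries.

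The Ccl5 count split the members further. Ccl5, a chemokine of memory and effector CD8 T cells, was absent in 25 of 66 and 90 of 191 members, and 22 and 26 members had 5 to 14 UMIs. Gzmm had 1, 0 and 10 UMIs in members with 0, 1 to 4 and 5 to 14 Ccl5 UMIs of the library labelled Pdcd1fl/fl, and 2, 1 and 10 in the other. Eomes had 4, 3 and 2 UMIs under that label, and 2, 9 and 14 in the other. Most Gzmm thus lay in the members with most Ccl5, and most Eomes did so in the library labelled Pdcd1 cKO.

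S100a6 stood at 86.4, 608 and 540 CPM and at 55.8, 48.8 and 1057 CPM across the same bins. The value of 608 CPM comes from 52 UMIs in a bin that holds the stromal cell. Without that cell, the S100a6 UMIs of all members labelled Pdcd1fl/fl went from 104 to 71. Il2rb stood at 162, 175 and 258 CPM and at 53.9, 95.5 and 192 CPM. Dapl1 had the opposite order in the library labelled Pdcd1 cKO, 200.3, 191 and 7.66 CPM, while in the other it stood at 173, 23.4 and 73.6 CPM. Ccr7 stood at 594, 514 and 430 CPM and at 857, 779 and 169 CPM. These levels are pooled over the cells of a bin and do not show which genes lay in the same cell: 0 of 66 and 5 of 191 members had both Eomes and Gzmm.

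**Figure D3:**
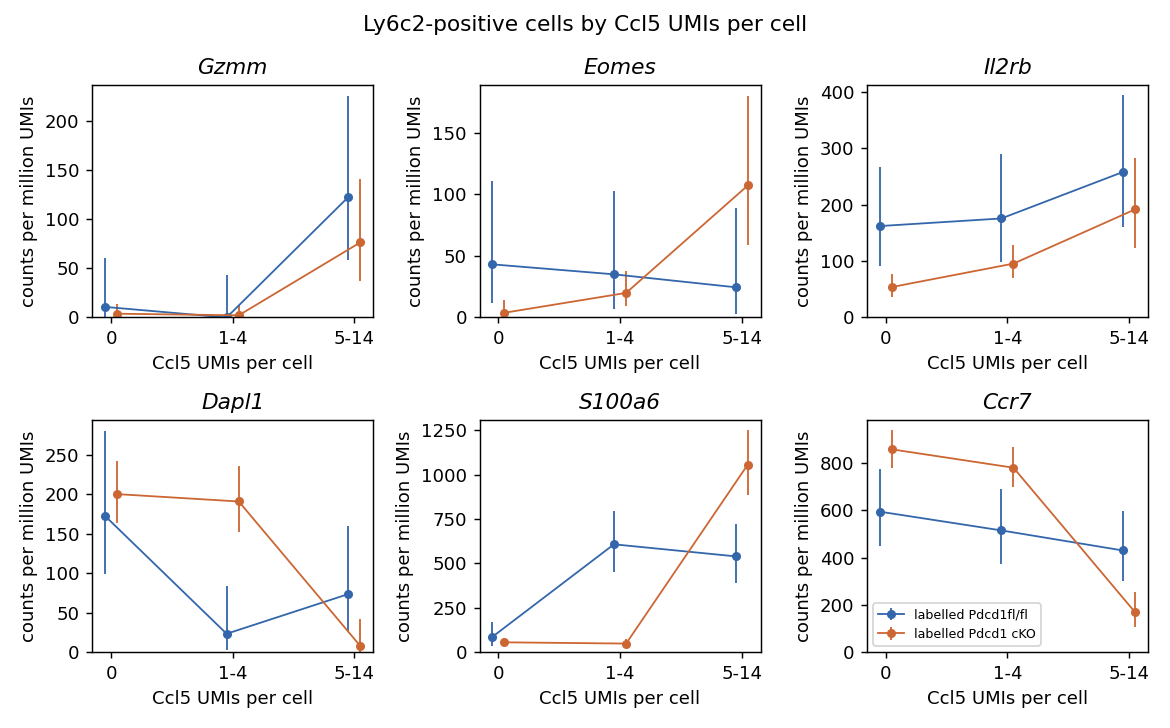
CPM of 6 genes (vertical axes) in Ly6c2-positive thymocytes with 0, 1 to 4 and 5 to 14 Ccl5 UMIs per cell (horizontal axes), with exact 95% Poisson intervals for counting error. In the library labelled Pdcd1 cKO, Dapl1 goes from 200.3 to 7.66 CPM and S100a6 from 55.8 to 1057 CPM.

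Just inside the Ccl5 limit, the 12 and 9 members with 10 to 14 Ccl5 UMIs had Gzmm at 172 and 61.8 CPM and Il2rb at 245 and 165 CPM. Just outside, the 7 and 13 Ly6c2-positive cells with 15 to 19 Ccl5 UMIs had Gzmm at 104 and 131 CPM and Il2rb at 278 and 218 CPM. S100a6 went from 638 and 1708 CPM inside the limit to 834 and 683 CPM outside, and Ccr7 from 245 and 103 CPM to 313 and 349 CPM, so cells on its sides were not alike in every gene. All 28 and 169 cells with at least 15 Ccl5 UMIs, whatever their Ly6c2, had Gzmm at 354 and 87.2 CPM, against 42.4 and 11.8 CPM in the members, and Eomes at 115 and 153 CPM, against 34.7 and 22.7 CPM. They also had S100a6 at 776 and 1088 CPM and Nkg7 at 1417 and 1649 CPM, both above the members. Ly6c2 was found in 26 of 28 and in 72 of 169 of them.

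Splenic cells chosen by the same rule numbered 455 and 1366, at median depths of 1400 and 1628 UMIs. They had Dapl1 at 399 and 457 CPM, Gzmm at 121 and 99.2 CPM, Eomes at 46.8 and 84.4 CPM, Il2rb at 249 and 343 CPM and Klf2 at 1066 and 1038 CPM. Ccr9 stood at 13.8 and 18.1 CPM in them. The thymic members had lower Dapl1, Gzmm, Eomes, Il2rb and Klf2 and higher Ccr9 than the splenic cells, and the tissues differ in library and depth. Under the label Pdcd1fl/fl, the members' intervals took in the splenic values of Eomes (15.9 to 65.8 CPM), Il2rb (146 to 258 CPM) and Ccr9 (13.3 to 60.7 CPM).

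Between the libraries, within the Ly6c2-positive cells, 87 of 3239 genes (2.69%) were at least 2-fold higher in the library labelled Pdcd1 cKO and 296 (9.14%) at least 2-fold lower. Among Ly6c2-negative cells the shares were similar, 171 of 6262 genes (2.73%) and 498 (7.95%). The median log2 ratio was -0.37 in the members and -0.32 in the Ly6c2-negative cells, so values below are read against those shifts. Scaled by the median of ratios, 187 genes were higher and 83 lower in the members, so the excess of lower genes turned with the scaling.

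Of the 8 genes highest in the library labelled Pdcd1 cKO, 5 were also at least 2-fold higher in its Ly6c2-negative cells. Gm50021 stood at 139 and 1002 CPM in the members (log2 ratio 2.85, 2.38 to 3.38) and had a ratio of 1.21 in the Ly6c2-negative cells, and Slc15a2, a peptide transporter, stood at 88.6 and 319 CPM (1.85, 1.24 to 2.52), beside 2.91. Lepr, the leptin receptor gene, had 0 and 56 UMIs, at least 4.40-fold higher by that floor (interval from 1.79), beside 2.14 in the Ly6c2-negative cells. Tdh had 0 and 67 UMIs, all from 1 cell. The others were mt-Nd4l, Samd9l, Gm15832 and Gm37401, each with 2 or 3 UMIs in the library labelled Pdcd1fl/fl, beside 1.31, 0.32, 0.68 and 3.38.

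The genes lowest in that library rested largely on the stromal cell. Dcn, C3, Mgp, Igfbp5 and Gm28981 each came from 1 member of the library labelled Pdcd1fl/fl, and without cells that had stromal UMIs Dcn, C3, Mgp and Igfbp5 had 0 UMIs there. Gm28981 kept its 54 UMIs, from another cell. Fos and Egr1, genes induced within minutes of stimulation, had ratios of -3.77 and -4.42, and of -0.49 (-1.15 to 0.22) and 0.60 (-0.76 to 2.31) without those cells. Gm49313 stood at 139 and 16.4 CPM (-3.08, -3.99 to -2.23), beside -0.83 in the Ly6c2-negative cells.

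Of genes named above, S100a6 stood at 401 and 172 CPM, a log2 ratio of -1.22 (-1.57 to -0.86) beside 0.28 in the Ly6c2-negative cells and of -0.75 (-1.16 to -0.34) without cells that had stromal UMIs. Il2rb had a ratio of -1.17 (-1.68 to -0.65) beside -0.70, and Nkg7 of -0.88 (-1.10 to -0.65) beside -0.54. Dapl1 had a ratio of 0.91 (0.29 to 1.59) beside 0.25, and Ccr9 stood at 30.8 and 87.2 CPM (0.47 to 2.75 for the log2 ratio) beside a ratio of 0.30. In pooled counts, members of the library labelled Pdcd1 cKO thus had less S100a6, Il2rb and Nkg7 and more Dapl1 and Ccr9, and a larger share of them had 1 Ly6c2 UMI (50.8% against 30.3%) and a smaller share 5 to 14 Ccl5 UMIs (26 of 191 against 22 of 66). Among those with 5 to 14 Ccl5 UMIs the order turned for S100a6, at 540 and 1057 CPM, and for Dapl1, at 73.6 and 7.66 CPM. The Dapl1 values rest on 6 UMIs and 1 UMI, with overlapping intervals (27.0 to 160 and 0.19 to 42.7 CPM). The rule set its Ly6c2 and Ccl5 limits on raw counts, and the members had medians of 3491 and 5669 UMIs. Relative to depth the limits thus differed between the libraries, and the part of this in the differences was not tested.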

How the data were processed

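Thymic and splenic CD8 T cells were profiled by droplet single-cell RNA sequencing. The authors aligned reads to GRCm39 and deposited raw UMI counts per gene and barcode, and the submitters' processing notes name Seurat 4.3.0. Members and gene lists were chosen with earlier results of these data known. UMIs were summed over each group of cells and divided by the group's total (CPM). Ratios had exact conditional binomial intervals, CPM exact Poisson intervals and shares Clopper-Pearson intervals, and the ratio step was checked on simulated counts. Genes needed 50 UMIs over both groups of cells, and Ly6c2, Dntt, Ccl5, Cd8a, Cd8b1 and the 6 cycling genes were left out of gene counts. Named genes were Pdcd1, the 5 markers, the 4 most abundant and the highest and lowest tested genes of each list, the 15 highest and 15 lowest ratios shared by both libraries, the 8 highest and 8 lowest between libraries (0.5 UMIs added) and Ly6c1. Other genes named were chosen after their values were seen. Mx1, Tcrg-C1, Tcrg-C2, Tcrg-C4 and Cd163l1 were not matched. Cells were thinned with seed 1. Coordinates and coding sequences came from GENCODE on GRCm39. Tumor libraries were not used here. Python 3.11.15, numpy 2.4.6, scipy 1.17.1, pandas 2.3.3, Biopython 1.88 and matplotlib 3.10.9 were used.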

Additional observations from a re-analysis of the deposited data

Results flagged for a closer look

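For 6 named genes the ratio of Ly6c2-positive over Ly6c2-negative cells went opposite ways in the libraries, each with an interval off 0, and the difference was not tested. The log2 ratios in the libraries labelled Pdcd1fl/fl and Pdcd1 cKO were 2.75 and -1.15 for Egr1, 2.00 and -0.91 for Fos, 2.16 and -5.53 for Dcn, 2.81 and -4.48 for C3, 0.97 and -0.25 for Bst2 and -1.43 and 0.21 for Gm50021. In the library labelled Pdcd1fl/fl, 400 UMIs of Fos and Egr1 lay in the member with 444 stromal UMIs, which held the Dcn and C3 UMIs of the members. In the library labelled Pdcd1 cKO, the members had 1 UMI each of Dcn and C3 against 120 and 58 in the Ly6c2-negative cells, of which 1 cell had 195 stromal UMIs and 261 UMIs of Fos and Egr1. Against Ccr7-positive Ly6c2-negative cells of that library, the ratios were -0.09 for Egr1, -0.01 for Fos and -0.42 for Dcn, with intervals that took in 0. Against such cells of each library, Bst2 still went opposite ways, at 0.76 (0.14 to 1.39) and -0.28 (-0.54 to -0.03). Egr1 then stood at 3.78 (3.02 to 4.65) under the label Pdcd1fl/fl.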

How the results depend on the processing

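The share of Ly6c2-positive cells was 30.7% and 14.4% in the libraries labelled Pdcd1fl/fl and Pdcd1 cKO with at least 2 Ly6c2 UMIs, and 22.9% and 10.8% in thinned cells. Its order was the same under all 8 alternatives, but the minimum of 2000 UMIs removed 0 cells and the 5% cut 2 of 170 and 0 of 748, so neither tests it. Genes 2-fold higher and 2-fold lower in both libraries, 0 and 0, became 4 and 5 with at least 2 Ly6c2 UMIs, 2 and 2 with no limit on Ccl5, 6 and 15 with genes of at least 20 UMIs, and 1 and 1 against Ccr7-positive cells. They became 0 and 1 with at least 2 UMIs of Cd8a and Cd8b1 or without the 5% of cells with most UMIs. They became 2 and 0 with median of ratios scaling, and 1 and 0 with a total without mitochondrial, ribosomal and Malat1 UMIs, with the mean of per-cell CPM, with depth weights, or without cells with stromal UMIs, the last chosen after seeing the data. Between libraries, 87 genes higher and 296 lower became 52 and 170 with at least 2 Ly6c2 UMIs, 258 and 1010 with genes of at least 20 UMIs, 46 and 95 with at least 100, 187 and 83 with median of ratios scaling, and 164 and 112 with the reduced total. With at least 2 UMIs of Cd8a and Cd8b1, 197 were lower.

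Reversals of 2-fold ratios in the library labelled Pdcd1fl/fl included -2.84, -3.38 and -0.10 for Dcn and, alike, the median of the stromal list, with at least 2 Ly6c2 UMIs, without the 5% of deepest cells and with per-cell CPM. In the first and second of these settings Fos became -1.19 and -1.32, Fosb -0.041 and -0.41, and without the deepest cells Gm50021 became 0.064. Without cells with stromal UMIs, Egr1 went from 2.75 to -1.21 in that library. Between libraries it then went from -4.42 to 0.60, on 5 UMIs in the members labelled Pdcd1fl/fl. Between libraries, Fosb became 0.026 with at least 2 Ly6c2 UMIs, 0.18 with at least 2 UMIs of Cd8a and Cd8b1, and 0.16 without the deepest cells or without cells with stromal UMIs, and Ahnak became 0.60 with at least 2 UMIs of Cd8a and Cd8b1. The cause was not tested. Of 3817 recomputed ratios of named genes, 3557 stayed inside the counting interval. Any ratio recomputed with the minimum of 2000 UMIs, which removed 0 cells, could not move.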
